A study of Saccharomyces cerevisiae with 4 samples.

Results

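The proteasome is the protease complex that degrades proteins tagged with ubiquitin. Its genes were followed here in Saccharomyces cerevisiae cells whose wall was being digested. The members were the array rows whose current gene symbol is RPN, RPT, PRE or PUP followed by a number, or SCL1, which gave 34 of the 6207 yeast rows. Of the 34 genes, 32 encode structural subunits, 1 is RPN14, an assembly chaperone of the base, and 1 is RPN4, the transcription factor that activates proteasome genes. The 32 subunit genes comprised 14 of the core particle, 10 of the base and 8 of the lid.

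Both RNA samples of every array came from a hog1 mutant, which carries a changed gene for the MAP kinase of the high-osmolarity pathway, and no wild-type cells were analysed here. Cultures grew in YEPD, a rich medium, at 24 °C and were split. One portion received 5 units/ml of Zymolyase 100T, an enzyme preparation that digests the beta-glucan of the yeast cell wall, and the other portion stayed untreated, with RNA taken at 3 h. RNA from 2 cultures was hybridised on 4 arrays with dye swaps. On arrays 1 and 3 the Cy3 dye marked the treated RNA, and on arrays 2 and 4 the Cy5 dye did so. Which arrays share a culture is not in the labels.

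The core particle is a barrel of stacked alpha and beta rings, with the proteolytic sites inside the beta rings. The regulatory particle caps it: the base holds the ATPases that unfold a substrate, and the lid removes its ubiquitin. In budding yeast the genes of these subunits share a promoter element bound by Rpn4, a short-lived protein that the proteasome itself degrades, so that a loss of proteasome activity raises Rpn4 and with it the subunit mRNAs.

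Values are log2 ratios, read as treated over untreated once the Cy5-treated arrays 2 and 4 had been given the opposite sign. This direction is likely but is stated nowhere in the sources used. It rests on PRM1, FIG1 and PGU1, genes of mating and filamentous growth that are almost silent in unstimulated cells, which had mean log2 ratios of 6.51 ± 3.01, 5.40 ± 0.88 and 5.38 ± 0.72 (SD, n = 4 arrays) in this reading. With the opposite numerator all signs given here would turn and all sizes would stand. A ratio compares shares of the labelled RNA, so a change in total RNA per cell would not be seen. HOG1 had no value on any array and gives no check of the strain.

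Arrays 1 to 4 held values for 2794, 4162, 5322 and 5127 of the yeast rows. The proteasome genes were measured almost completely: 32 of the 34, or 94.1%, had a value on all 4 arrays, against 43.7% of all yeast rows. All 32 were the subunit genes. RPN4 had values on arrays 2, 3 and 4, and RPN14 on arrays 3 and 4 only.

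The mean log2 ratios of the subunit genes lay close to no change, and none of the proteasome genes tested was called. Of the 33 members with 3 or 4 values, 0 were called by limma at an adjusted p under 0.05. Of the 4090 rows tested 1.52% were called, so a count of 0 is near the background. At an unadjusted p under 0.05 there was 1 of the 33 members (3.03%), RPN7, against 12% of all tested rows. The median of the subunits' mean log2 ratios was 0.009, with 17 means above 0 and 15 below, and over all tested rows it was −0.04. No member had a mean past 1.5-fold in either direction, a size that 5.13% of all tested rows reached.

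The limma intervals give a range for each change, under a variance pooled in part over all tested rows. They do not show the spread of a gene over its arrays. PRE10, with an SD of 0.05, had an interval from −0.19 to 0.52, and RPN7, with an SD of 0.47, from 0.09 to 0.80. The limma 95% interval of each of the 33 members lay within 2-fold in both directions, as it did for 94.2% of all tested rows. The lowest bound was a log2 ratio of −0.76, for PRE3, and the highest 0.80, for RPN7, and the median half-width was 0.36. The smallest mean log2 ratio called among all tested rows was 0.92 in size. The number of called rows depends on the pairing, and the smallest called size was not computed for each pairing alone. With arrays 1+4 and 3+2 as pairs alone, 288 rows were called instead of 62. The lowest adjusted p of a proteasome gene was then 0.0949 by limma. With arrays 1+2 and 3+4 as pairs alone, 62 rows were called and that p was 0.331 by limma.

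**Figure D1:**
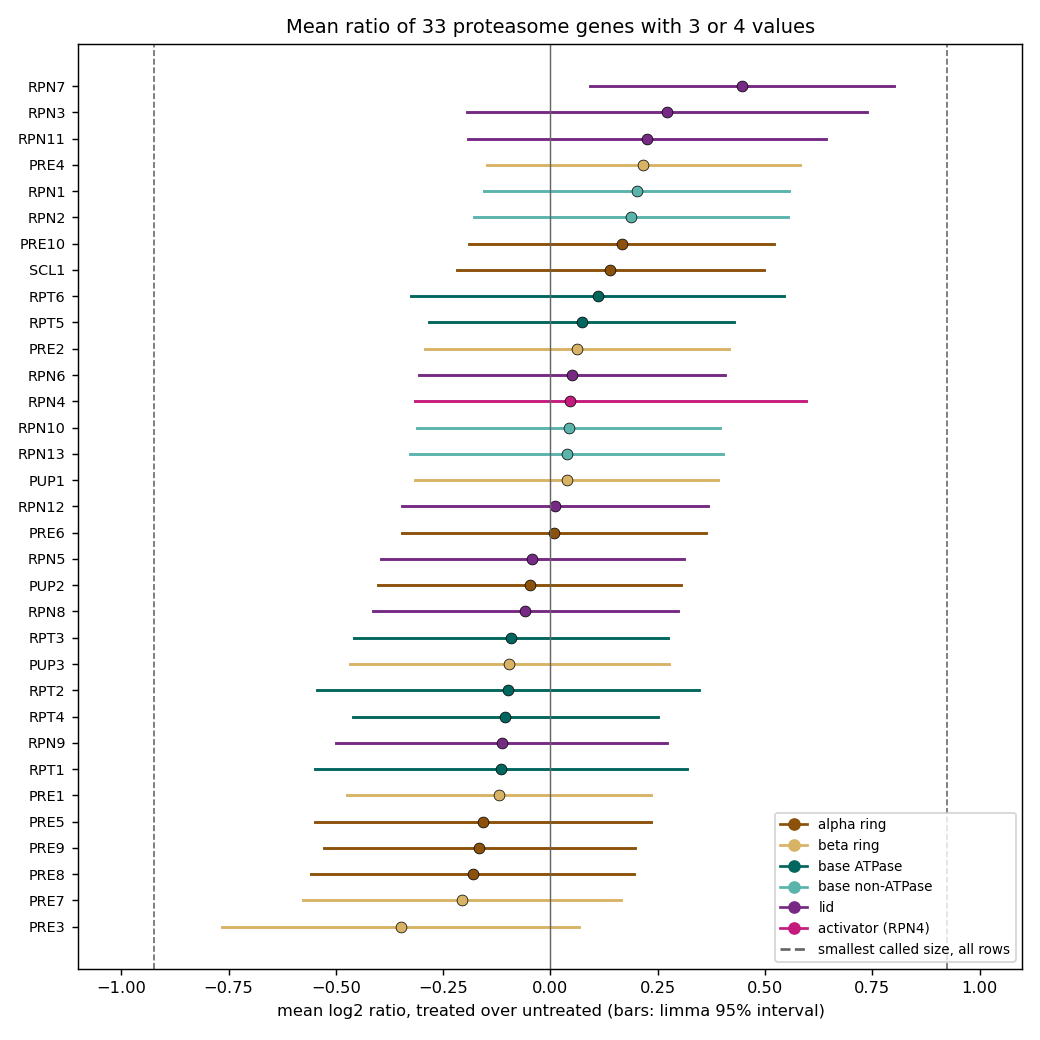
Mean log2 ratio (treated over untreated, horizontal axis) of the 33 proteasome genes with 3 or 4 values, ordered by mean, with bars for the wider of the limma 95% intervals under the 2 possible pairings of arrays into cultures. Dashed lines mark the smallest size called among all tested rows, 0.92, and no bar reaches them; the bar of RPN4 is not centred on its point because array 1 is missing.

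In the order of the means RPN7 stood highest at 0.45 ± 0.47 (SD, n = 4 arrays from 2 cultures), followed by RPN3, RPN11, PRE4 and RPN1. PRE3 stood lowest at −0.35 ± 0.39, preceded by PRE7, PRE8, PRE9 and PRE5. The limma 95% intervals of RPN7 and PRE3, the ends of this order, did not overlap, and those of the other 527 of the 528 pairs of members did. No difference between 2 members was tested. The subunit means had an SD of 0.17 between genes, while the median SD of a subunit gene over its arrays was 0.23. Over all tested rows the corresponding SDs were 0.41 and 0.30.

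The 7 alpha-ring genes, which build the gated entry of the core, had means between −0.18 and 0.17, with a median of −0.05. PRE10 was the steadiest gene of the ring, with log2 ratios of 0.13, 0.13, 0.24 and 0.16 on arrays 1 to 4 and a mean of 0.17 ± 0.05 (SD, n = 4; adjusted p = 0.707 by limma). It was above 0 on every array. SCL1, the first of the alpha subunits, had −0.33, 0.51, 0.46 and −0.07 and a mean of 0.14 ± 0.41.

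SCL1 was thus high on arrays 2 and 3 and low on arrays 1 and 4, which do not share a dye orientation. PRE8 had −0.39, 0.29, −0.12 and −0.50 on arrays 1 to 4, and PRE9, the only core subunit that yeast can grow without, −0.24, 0.07, −0.08 and −0.41. Both were above 0 on array 2 alone. PRE5 had 0.33 on array 1 and −0.31, −0.31 and −0.34 on the others. PRE6 and PUP2 ranged from −0.15 to 0.22 and from −0.31 to 0.21, with means of 0.01 and −0.05.

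The 7 beta-ring genes had a median mean of −0.10 and a wider range, from −0.35 to 0.22. PRE3, which carries the caspase-like active site, had log2 ratios of −0.33, 0.06, −0.26 and −0.88 on arrays 1 to 4 (adjusted p = 0.48 by limma). It was below 0 on 3 arrays, and its value on array 4 was the lowest of any subunit on any array. The genes of the other active sites lay nearer to 0: PUP1, of the trypsin-like site, had a mean of 0.04 ± 0.10, and PRE2, of the chymotrypsin-like site, 0.06 ± 0.26.

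PRE2 was above 0 on arrays 1 and 4 (0.27 and 0.30) and below on arrays 2 and 3 (−0.17 and −0.14). PRE7, a beta subunit without an active site, was below 0 on all arrays, with −0.07, −0.12, −0.26 and −0.37 and a mean of −0.21 ± 0.14 (adjusted p = 0.642 by limma). PRE4, also without an active site, was high on 3 arrays and low on array 3, with 0.33, 0.29, −0.32 and 0.57. The other beta genes, PRE1 and PUP3, had means of −0.12 ± 0.20 and −0.10 ± 0.30 with both signs among their arrays. Among the 32 subunit genes 2, PRE10 and PRE7, kept 1 sign on all 4 arrays; this was 6.25% of them, against 25.1% of all rows with 4 values.

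The base has 6 ATPases, RPT1 to RPT6, which form the ring that unfolds and translocates substrates. Their means lay between −0.12 and 0.11, with a median of −0.10. RPT5 was the steadiest, with 0.15, 0.07, −0.01 and 0.08 on arrays 1 to 4. RPT1 had 0.28, −0.01, −0.06 and −0.67, and RPT2 0.33, 0.02, 0.02 and −0.76.

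RPT1 and RPT2 shared a pattern in which array 1 was high, array 4 low and arrays 2 and 3 near 0. RPT6 had it as well, with 0.71, 0.02, 0.08 and −0.36. RPT4 had values from −0.27 to 0.0012, and RPT3 was above 0 on array 2 only (0.24). The median of the ATPase genes was 0.22 on array 1 and −0.32 on array 4, against −0.06 and −0.02 for all tested rows.

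The other base genes encode the scaffolds RPN1, which also docks ubiquitin shuttles, and RPN2, and the ubiquitin receptors RPN10 and RPN13. All 4 means were above 0, at 0.20, 0.19, 0.04 and 0.04. RPN1 had 0.39, −0.04, 0.22 and 0.23 on arrays 1 to 4. RPN2 had 0.49 and 1.07 on arrays 1 and 3 and −0.30 and −0.51 on arrays 2 and 4, so its sign followed the dye.

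The means of RPN1 and RPN2 were alike, but their spread over arrays was not, with SDs of 0.18 and 0.73. The limma interval was nearly as narrow for RPN2, from −0.18 to 0.55, as for RPN1, from −0.15 to 0.55. It rests on culture means, which average arrays of opposite dye, and on a variance pooled in part over all tested rows. The part of each in the narrow interval of RPN2 was not tested. RPN10 ranged from −0.09 to 0.17 over the arrays and RPN13 from −0.19 to 0.18.

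The lid held the highest mean of any subcomplex member. RPN7, a scaffold subunit of the lid, had log2 ratios of 0.72, 0.18, 0.95 and −0.06 on arrays 1 to 4, which gave an unadjusted p of 0.0214 and an adjusted p = 0.332 by limma. It was high on the arrays with treated RNA in Cy3 and near 0 on those with treated RNA in Cy5. RPN3, another scaffold, had 0.02, −0.08, 1.01 and 0.14, so its mean of 0.27 ± 0.50 rested on array 3, and without array 3 it was 0.03.

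RPN11, the metalloprotease that cleaves ubiquitin chains from the substrate, had 0.19, −0.18, 0.76 and 0.13 and a mean of 0.23 ± 0.39. It too was highest on array 3, and its mean without that array was 0.05. Its partner in the lid, RPN8, had values from −0.27 to 0.22 and a mean of −0.06 ± 0.21. RPN9 had 0.36 and 0.28 on arrays 1 and 3 and −0.28 and −0.81 on arrays 2 and 4, and so changed sign with the dye as RPN2 did.

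RPN5 and RPN6 were among the steadiest proteasome genes, with SDs of 0.09 each and means of −0.04 and 0.05. RPN6 had 0.19 on array 1 and 0.0035, 0.0079 and −0.0019 on the others. RPN12 had −0.23 and −0.15 on arrays 1 and 3 and 0.15 and 0.26 on arrays 2 and 4, the reverse of RPN9. SEM1, a further small lid subunit whose symbol lies outside the naming rule, had no matching array row.

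**Figure D2:**
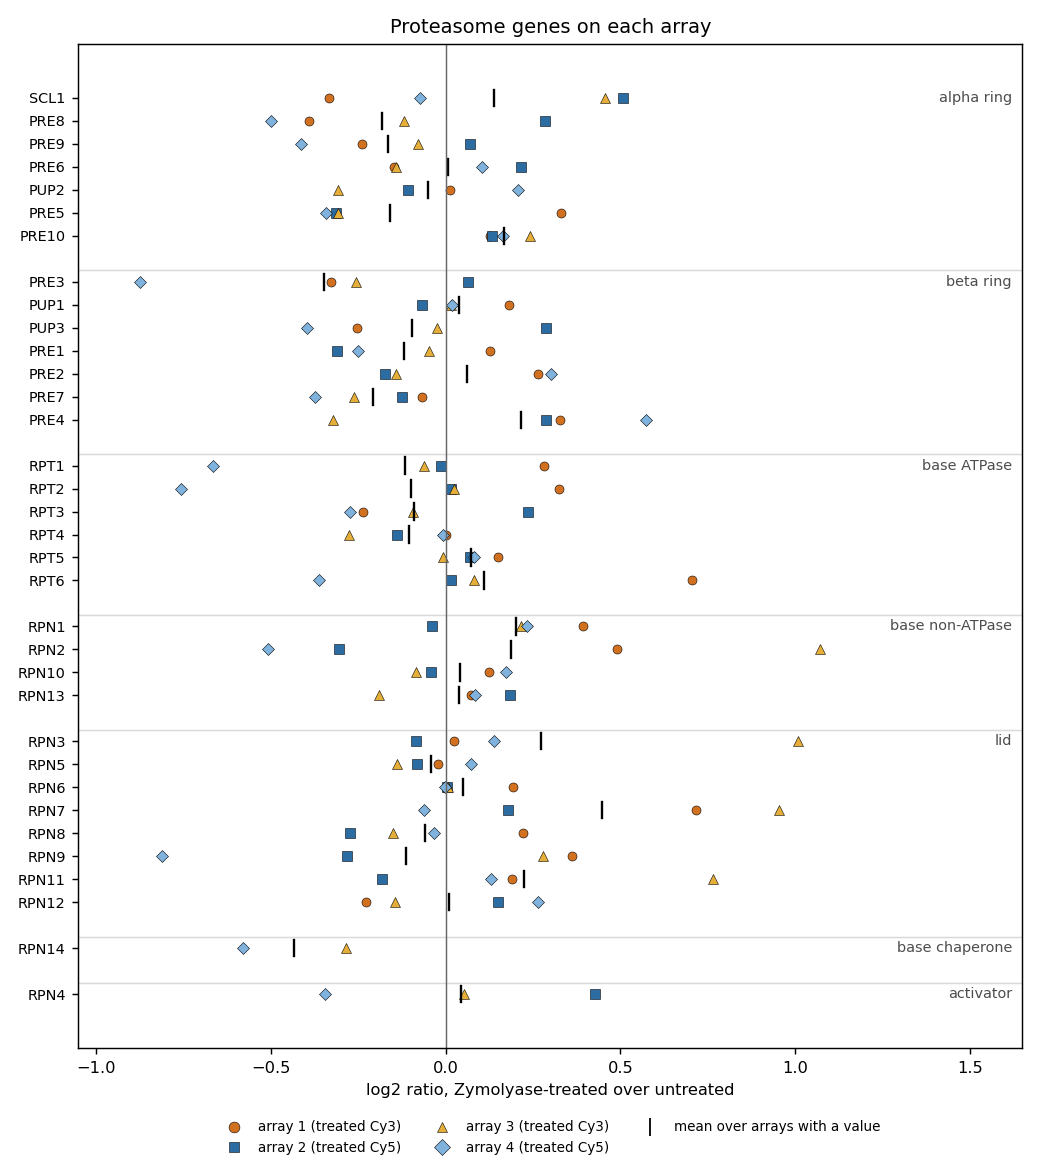
Log2 ratio (treated over untreated, horizontal axis) of the 34 proteasome genes on each array, grouped by subcomplex, with symbols for the arrays and a black bar for the mean over arrays with a value. Most values lie within 0.5 of 0, and the exceptions are array 3 for RPN2, RPN3, RPN7 and RPN11, array 1 for RPT6 and RPN7, array 2 for SCL1, and array 4 for PRE3, PRE4, RPT1, RPT2, RPN2, RPN9 and RPN14.

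RPN4 lay within the range of the genes it activates. It had log2 ratios of 0.43, 0.05 and −0.34 on arrays 2, 3 and 4 and a mean of 0.05 ± 0.39 (SD, n = 3). Array 1 had no value, so the fit took 1 culture from a single array. The tested estimate is the mean of the 2 culture means, and its sign differs between the 2 pairings. The larger p of the pairings gave an adjusted p = 0.948 by limma. The limma interval, the wider of the 2 pairings, ran from −0.32 to 0.60 and spans the subunits' median. On arrays 2, 3 and 4 the subunits' median was −0.01, −0.07 and −0.02. Among these arrays it was thus also highest on array 2, within a narrower range. The core median there was 0.07, −0.13 and −0.16 and the base median 0.00035, −0.04 and −0.14, in the order of RPN4. The lid median was −0.08, 0.14 and 0.04, in another order. Whether RPN4 and the subunits moved together was not tested.

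RPN4 minus the core median was 0.36, 0.18 and −0.18 on arrays 2, 3 and 4. For the base the differences were 0.43, 0.09 and −0.20, and for the lid 0.51, −0.09 and −0.38. No subcomplex lay on one side of RPN4 on all 3 arrays. The medians of the members' means were −0.07 for the core, 0.04 for the base and 0.03 for the lid, each nearer to the mean of RPN4 than the SD of RPN4 over its arrays.

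**Figure D3:**
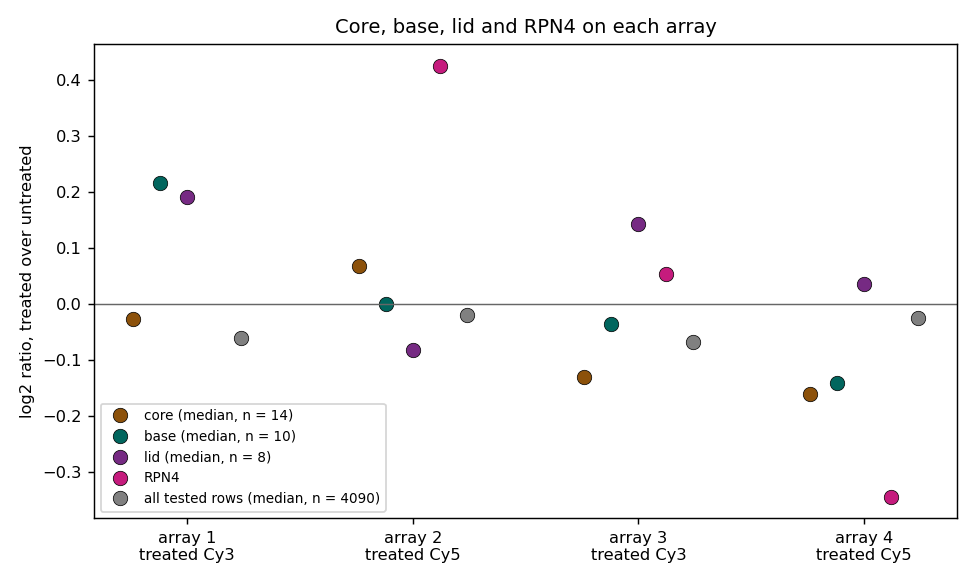
Median log2 ratio (treated over untreated, vertical axis) of the core, base and lid genes and of all tested rows, with the value of RPN4, on each array. RPN4 moves from 0.43 on array 2 to −0.34 on array 4, and the core lies below the lid on arrays 1, 3 and 4 and above it on array 2.

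The order of the subcomplex medians was not the same on all arrays. Arrays 3 and 4 shared the order lid, base, core from high to low, and arrays 1 and 2 each had another. The core median minus the lid median was −0.22, 0.15, −0.27 and −0.20 on arrays 1 to 4. The core was lower on 3 arrays and higher on array 2. The core median minus the base median was −0.24, 0.07, −0.10 and −0.02, and the base median minus the lid median 0.025, 0.08, −0.18 and −0.18. No test was made of these differences, because the members were chosen with results known and there are 2 cultures.

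Several of the larger subunit values differed between the dye orientations. The mean of the Cy5-treated arrays minus that of the Cy3-treated arrays was −1.19 for RPN2, −0.87 for RPN9, −0.78 for RPN7, −0.57 for RPT6 and −0.54 for RPT2, and the largest positive gaps were 0.43 for PRE4 and 0.39 for RPN12. Of the 8 lid genes 6 had a lower mean on the Cy5-treated arrays, as had 50.8% of all rows with 4 values. The lid median was 0.21 over the Cy3-treated arrays and −0.0016 over the Cy5-treated arrays, against −0.07 and −0.04 for all tested rows. On the Cy3-treated arrays alone RPN7 passed the test (mean 0.83, adjusted p = 0.0342 by limma), where 146 of 2762 tested rows were called. On the Cy5-treated arrays alone the mean of RPN7 was 0.06 (adjusted p = 0.901 by limma).

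**Figure D4:**
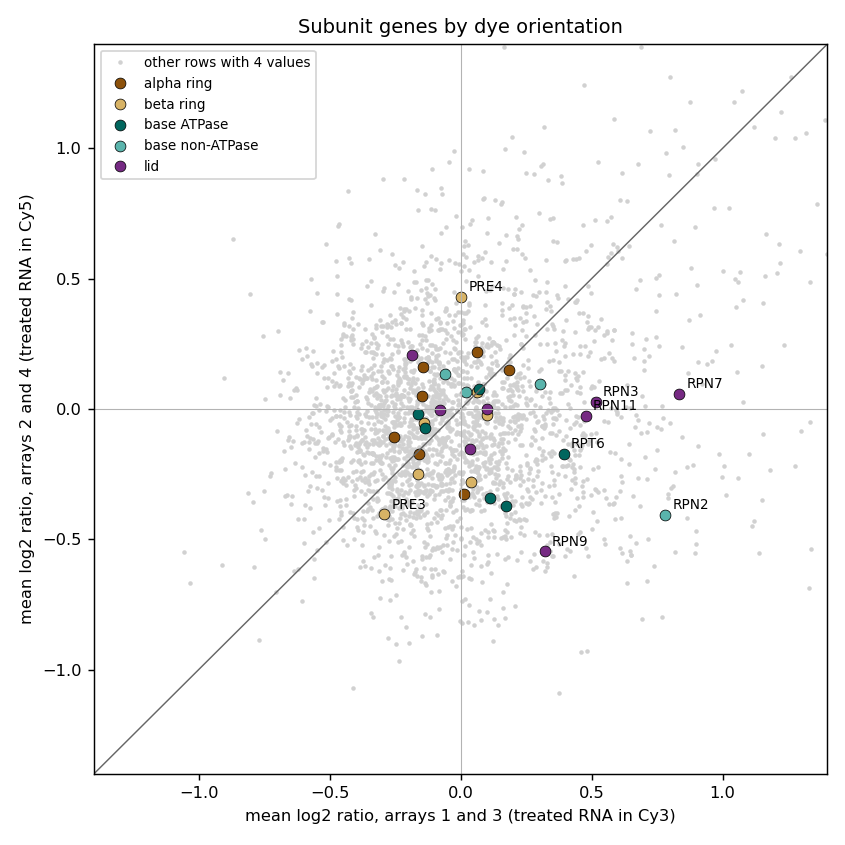
Mean log2 ratio of the arrays with treated RNA in Cy3 (horizontal axis) against that of the arrays with treated RNA in Cy5 (vertical axis) for the 32 subunit genes, over the other rows with 4 values in grey; 68 rows of 2715 lie outside the axes. The diagonal marks equal means, and RPN2, RPN9 and RPN7 lie farthest below it, while PRE4 lies above.

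Gene length went along with part of this. Across the 32 subunit genes, the Spearman correlation between the annotated gene length in assembly R64 and the log2 ratio was 0.48 on array 1, −0.22 on array 2, 0.45 on array 3 and 0.06 on array 4. Across the 3936 tested rows with an annotated length it was 0.08, −0.10, 0.38 and 0.12. These are descriptions across genes that share an array, and the length of the arrayed DNA is not given in the sources used here.

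Long genes were thus higher on array 3 in all rows as well as among the subunits. RPN2 and RPN1, at 2838 and 2982 bases, are the longest subunit genes, and RPN3 (1572 bases) comes next, while the core genes are 867 bases or shorter. On array 3 RPN3, RPN2 and RPN11 exceeded each of their other arrays by at least 0.5, which is 9.38% of the subunits, against 8.51% of all rows with 4 values. The part of length in the values of RPN2 and RPN3 was not tested, and RPN11, at 921 bases, is not a long gene.

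The arrays did not rank the subunit genes alike. Over the 32 genes, the Pearson correlation was 0.36 between arrays 1 and 3 and 0.14 between arrays 2 and 4, which share a dye orientation. Between arrays of opposite orientation it was −0.45 (arrays 1 and 2), 0.06 (1 and 4), −0.07 (2 and 3) and −0.02 (3 and 4). Differences between subunit genes within one array were therefore mostly not repeated on an array of the other orientation, and arrays 1 and 2 ran opposite. On an array of the same orientation they were repeated only weakly. All rows with 4 values gave Pearson correlations of 0.54 (arrays 1 and 3) and 0.69 (arrays 2 and 4) for the pairs of the same orientation. For the pairs of opposite orientation these rows gave Pearson correlations between 0.24 and 0.57, and Spearman correlations between −0.0023 and 0.18.

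The genes that help to build or attach to the proteasome had no called member either. Of a list of 14 assembly and associated factors, which counts SEM1, 10 were tested and 0 were called, where 1.52% of all tested rows were called, so a count of 0 is near the background. Their median mean was 0.12, with 7 means above 0 and 3 below, and 1 of the 10 had an unadjusted p under 0.05. Among the tested members NAS2, a chaperone of base assembly, had the largest mean, with 0.29, 0.45 and 0.43 on arrays 2, 3 and 4 (0.39 ± 0.09, SD, n = 3), and an unadjusted p of 0.0492 in a fit with 1 culture mean from a single array. NAS6, another base chaperone, had −0.53, 0.12, −0.48 and −0.34 on arrays 1 to 4 (−0.31 ± 0.29).

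NAS2 and NAS6 thus lay on opposite sides of 0. BLM10, which caps the core as an alternative activator, had 0.23, 0.20 and 0.49 on arrays 2, 3 and 4. UMP1, the chaperone of core maturation, had a mean of 0.03 ± 0.24 (chosen after its values were seen). RPN14, with −0.29 on array 3 and −0.58 on array 4, had too few values for the test.

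Of 24 ubiquitin and shuttle genes, 19 were tested and 0 were called by limma, also near the background of 1.52%, and 0 had an unadjusted p under 0.05, with a median mean of 0.11, 11 means above 0 and 8 below. CDC48, the ATPase that extracts ubiquitylated proteins, had 0.10, −0.32, 1.12 and 0.26 on arrays 1 to 4 (0.29 ± 0.60). Its cofactor UFD1 had 0.26, 0.19 and 0.42 on arrays 2, 3 and 4 (0.29 ± 0.12, n = 3). MUB1, which acts with UBR2 and RAD6 in the ubiquitylation of Rpn4, had 0.15, −0.02 and 0.57 on the same arrays.

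CDC48 was high on array 3 alone, as RPN3 was, and UBA1, the ubiquitin-activating enzyme, had 1.27 there and 0.08, −0.20 and −0.32 on arrays 1, 2 and 4 (chosen after its values were seen). UBR2 had no value on any array. Among the transcription factors that are known to act on the RPN4 promoter, YAP1 had a mean of −0.05 ± 0.21 and PDR1 0.10 ± 0.41, and neither passed. PDR3 had 0.22 and 0.71, and HSF1 0.29 and 0.05, on arrays 3 and 4, and they were not tested.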

How the data were processed

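The authors deposited 1 table with a log2 ratio per array row and array. The sources used here do not state image analysis, background correction, normalization, scale, centring, numerator or the filter behind the blank cells. The deposited column medians were −0.06, 0.02, −0.08 and −0.03. Base 2 follows from the values: after turning arrays 2 and 4, all 9281 negative values were base-2 logarithms of a ratio with 4 decimals, against 56.5% by chance. The 2 control rows were left out, and 5654 of 6207 yeast rows took a symbol from NCBI RefSeq's table of assembly R64 by locus tag. Rows with 3 or 4 values (4090) were tested.

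Cultures were the replicates (n = 2). The p-values are meant to measure the spread between them, moderated by limma with a variance pooled over all tested rows. This pooled part had 4.92 prior degrees of freedom with arrays 1+2 and 3+4 as pairs, and 30.1 with arrays 1+4 and 3+2. For both possible dye-swap pairings (arrays 1+2 and 3+4, or 1+4 and 3+2), the 2 culture means were tested against 0 with limma 3.58.1 (lmFit, eBayes; R 4.3.3). The larger p was kept and adjusted over all tested rows by Benjamini-Hochberg, and 95% intervals are the wider of both pairings. Only 1 pairing can match the cultures. Where the kept p comes from the other, its means mix the cultures and it does not measure the spread between them. In a row with 3 values 1 culture mean is a single array, so its dye effect does not cancel. The tested estimate of such a row depends on the pairing and is not the printed mean over its arrays. The number of arrays limits the precision.

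The members, lists and tests were chosen with earlier results of these data known. All members are named. Of other lists, called genes, the 3 largest means in size and the 4 RPN4 regulators are named. A motif search in promoters was planned and not run, since promoter sequences were not used here.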

Additional observations from a re-analysis of the deposited data

Results flagged for a closer look

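Of the 32 proteasome genes with 4 values, 2 had a single array set apart from the rest, and about 1.6 would be by chance. PRE5 had 0.33 on array 1 against −0.34 to −0.31 on the other arrays. RPN6 had 0.19 on array 1 against −0.0019 to 0.0079 on the others. Both are array 1, which had the fewest values.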

How the results depend on the processing

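Called rows over the whole table numbered 62 of 4090 tested. They moved to 288 of 4090 with arrays 1+4 and 3+2 as pairs and to 41 of 4090 with equal scale between arrays. A fit of 4 arrays with a dye term called 119 of 2715, but it takes arrays as replicates although they come from 2 cultures. The Cy3-treated arrays alone gave 146 of 2762 and the Cy5-treated arrays alone 118 of 4043. Leaving out 1 array gave 22 of 2744 (without array 2) to 129 of 2722 (without array 3). Called proteasome genes numbered 0 in these fits, in those with arrays 1+2 and 3+4 as pairs, rows with 4 values, centred arrays and robust eBayes, and without each array in turn, with 1 exception: on the Cy3-treated arrays alone 1 gene, RPN7, was called. RPN4 could not be tested with rows with 4 values, the dye term, the Cy3-treated arrays, or without array 2, 3 or 4, which left 32 proteasome genes there. The lid median moved from 0.03 to 0.21 on the Cy3-treated arrays alone. Of 13 alternatives, 5 leave the mean of a subunit gene as it is by construction. Under the other 8, 15 of 32 subunit genes kept the sign of their mean. None moved by as much as its SD over arrays, but this holds by construction wherever 1 or 2 of the 4 arrays are left out. Several medians near 0 changed sign. The base median was −0.01 without array 1 and −0.05 on the Cy5-treated arrays alone, against 0.04 with all arrays. The median of all subunits, 0.009 with all arrays, was −0.03 without array 1. It was −0.02 without array 2 and −0.02 on the Cy5-treated arrays alone, where the lid median was −0.00165. Without spot intensities, signal over background is unknown.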
